A study of Mus with 6 samples.

Results

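NFAT transcription factors, the phosphatase calcineurin that activates them and the calcium entry channel that switches calcineurin on were examined as 10 genes in activated CD4+ T cells. The genes were taken by symbol from the table of expression values, namely the NFAT factors Nfatc1, Nfatc2, Nfatc3 and Nfat5, the calcineurin subunits Ppp3ca, Ppp3cb and Ppp3r1, the calcineurin regulator Rcan1, and Stim1 and Orai1, which belong neither to NFAT nor to calcineurin but supply the calcium signal upstream of them. All 10 were found among the 10995 genes listed. All 10 were also among the 8816 genes that averaged 1 FPKM or more over the libraries, on which every test was run. FPKM counts sequenced fragments per length of transcript and per depth of library.

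Naive CD4+ T cells from the spleen of wild-type mice were stimulated for 3 days through CD3 (antibody at 5 μg/mL) and CD28 (antibody at 2 μg/mL) with IL-2 at 100 U/mL. One set of cultures received an antibody that neutralizes VEGF-B, a growth factor of the VEGF family, and the control set received normal goat IgG, each at 1 μg/mL. There were 3 RNA-Seq libraries per treatment. All 6 libraries carried the same stimulation, so no unstimulated level was measured, and the age and sex of the animals and whether replicates came from separate mice were not given in the sources used here. p-values therefore describe the spread between these libraries, which may be technical.

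Engagement of the T cell receptor empties calcium from the endoplasmic reticulum. STIM1 senses this loss and opens ORAI1, the pore of the calcium release–activated channel in the plasma membrane. The calcium that enters binds calmodulin and the regulatory subunit of calcineurin, and calcineurin removes phosphates from NFATc1, NFATc2 and NFATc3, which then move to the nucleus and switch on cytokine and activation genes. NFAT5 is the exception in the family, as it lacks the calcineurin docking region and is best known for the response to osmotic stress.

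The FPKM of a library summed to between 260058 and 276622, and the number of reads behind them is unknown. Of 9 CD4+ T cell markers, all were detected, with a summed level of 533 to 572 FPKM with anti–VEGF-B and 539 to 613 FPKM with IgG, and Cd4 itself lay at 64.0 to 74.6 FPKM. Among these 9 markers Cd3e, Cd5 and Thy1 were called lower with anti–VEGF-B (33.3%, against 23.8% of all genes tested). None was called higher, against 4.87% of all genes. The part of these falls in the results was not tested. Of 2 markers of the other main T cell lineage, Cd8a reached at most 0.182 FPKM, and Cd8b1 lay at 2.27 to 4.51 FPKM. Of 9 myeloid markers, the 4 analysed summed to 11.4 to 12.9 FPKM with anti–VEGF-B and to 13.1, 12.8 and 28.8 FPKM in IgG replicates 1, 2 and 3, so that IgG replicate 3 stood apart. Fold changes of anti–VEGF-B against IgG were taken on log2(FPKM + 1), which understates the change of low genes, and had a median of -0.15 over all genes tested. Gene coordinates are those of the table, on GRCm38. The median shift of -0.15 enters each fold change taken without further scaling, and the change relative to it is stated where it matters.

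At a limma adjusted p under 0.05, 2 of the 10 genes, Orai1 and Nfatc1, fell with anti–VEGF-B, where 23.8% of all genes tested were called lower. None of the 10 was called higher in limma, against 4.87% of all genes, and none was higher at an unadjusted p under 0.05 either. At that unadjusted limit 7 of the 10 were lower, compared with 35.2% of all genes. The 3 anti–VEGF-B values lay entirely below the 3 IgG values for 6 of the 10 (Orai1, Stim1, Ppp3ca, Ppp3r1, Rcan1 and Nfatc1), where 38.5% of all genes did so. None lay entirely above, against 10.5% of all genes. The share called lower at the adjusted threshold (20%) was thus close to that of the whole table. The shares at the unadjusted limit (70%) and without overlap (60%) were above those of all genes. After median centring 2 of the 10 were still called lower, where 807 of all genes were. As the 10 genes were chosen with earlier results known, these differences were not tested. The median log2 fold change of the 10 genes was -0.25 (that of all genes was -0.15), with a range from -1.13 to 0.52.

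**Figure D1:**
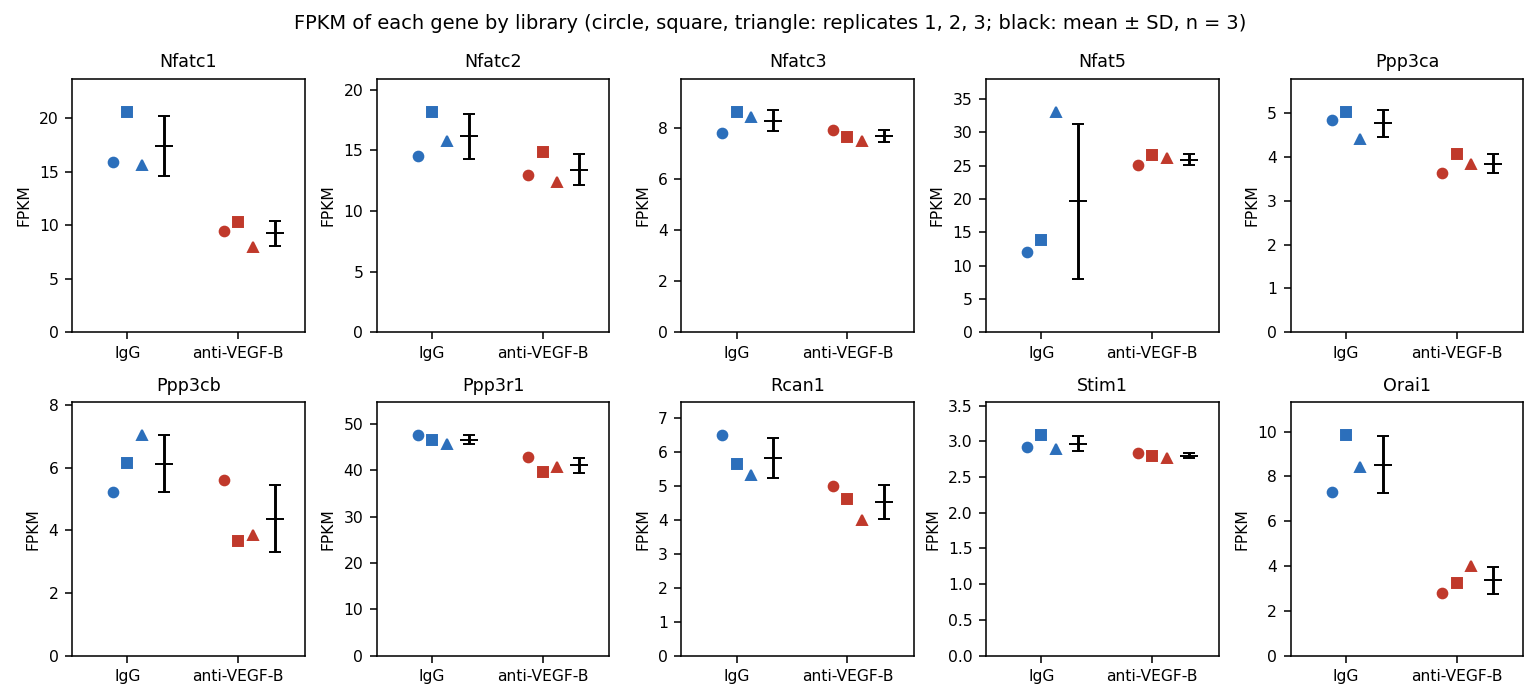
FPKM (vertical axis, from 0) of each of the 10 genes in the 3 IgG and 3 anti–VEGF-B libraries, with the mean and SD in black. Orai1 and Nfatc1 show wide gaps between treatments, and for Nfat5 the IgG libraries themselves split, with replicate 3 at 33.1 FPKM.

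Orai1 (ENSMUSG00000049686.14, chromosome 5 of GRCm38, 123015074 to 123030456, plus strand), the gene of the channel pore, changed most. It was at 2.79, 3.25 and 4.02 FPKM in anti–VEGF-B replicates 1, 2 and 3 and at 7.29, 9.84 and 8.43 FPKM in IgG replicates 1, 2 and 3. The highest anti–VEGF-B library therefore stayed well under the lowest IgG library. The means were 3.35 ± 0.617 and 8.52 ± 1.28 FPKM (SD, n = 3 each), a level 2.54-fold higher under IgG. On the log2 scale Orai1 fell by 1.13 (standard error 0.137, 95% interval -1.44 to -0.82, limma adjusted p = 0.00469), which is -0.98 relative to the median of all genes. A two-sided exact permutation test of the means gave p = 0.1, the smallest that 3 against 3 allow, as it did for each of the 6 genes without overlap. The fall remained past the threshold without any given library, at -1.03 to -1.24. It did not when the variance was not moderated across genes (adjusted p = 0.0696 in an ordinary linear model, against 0.00279 to 0.0696 over the alternatives), a setting that left only 6 genes lower in the whole table.

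Stim1 (ENSMUSG00000030987.5, chromosome 7, 102267806 to 102437319, plus strand), the calcium sensor that opens this pore, was lowly expressed and nearly level between treatments. It had 2.84, 2.79 and 2.77 FPKM with anti–VEGF-B and 2.92, 3.08 and 2.90 FPKM with IgG. Although these values did not overlap, the gap was small, with a log2 fold change of -0.062 (95% interval -0.27 to 0.15, limma adjusted p = 0.634), and the sign turned after quantile normalization (0.17) and median centring (0.14). The ratio of Orai1 to Stim1 within a library, which a single scaling factor per library cannot alter, was 0.985, 1.16 and 1.45 with anti–VEGF-B and 2.50, 3.19 and 2.91 with IgG. All 3 anti–VEGF-B ratios lay below all 3 IgG ratios (p = 0.1 in a two-sided exact permutation test, the lowest value possible). Orai2 averaged 3.76 ± 0.516 FPKM in the IgG libraries and 2.50 ± 0.527 FPKM in those given anti–VEGF-B (log2 fold change -0.45, limma adjusted p = 0.0376), a call that was lost after quantile normalization (0.182) and median centring (0.133), and on leaving out replicate 2 or 3 of either treatment (0.0685 to 0.134, limma, over these 4 fits). Orai3 was at 1.04 ± 0.475 and 1.77 ± 0.530 FPKM (-0.46, limma adjusted p = 0.0996), and Stim2 at 6.38 ± 0.884 and 6.83 ± 1.28 FPKM (-0.079, limma adjusted p = 0.681). Orai1 thus had the highest mean of the 3 channel genes under either treatment, although with anti–VEGF-B its values overlapped those of Orai2 (1.93 to 2.98 FPKM).

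Calcineurin is a dimer of a catalytic A subunit, encoded by Ppp3ca, Ppp3cb or Ppp3cc, and a calcium-binding B subunit, encoded in T cells by Ppp3r1. None of the genes of this enzyme passed the threshold. Ppp3r1 (ENSMUSG00000033953.10, chromosome 11, 17159263 to 17200375, plus strand) was the most abundant of the 10 genes, at 42.9, 39.6 and 40.8 FPKM with anti–VEGF-B and 47.6, 46.7 and 45.8 FPKM with IgG. These values were tight and did not overlap, yet the log2 fold change was only -0.18 (95% interval -0.33 to -0.024, limma adjusted p = 0.0780), close to the median of all genes, and was 0.022 after median centring.

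Ppp3ca (ENSMUSG00000028161.17, chromosome 3, 136670124 to 136937727, plus strand), the alpha isoform of the catalytic subunit, had 3.63, 4.08 and 3.84 FPKM with anti–VEGF-B and 4.85, 5.03 and 4.42 FPKM with IgG. Each anti–VEGF-B library was under each IgG library, at a log2 fold change of -0.25 (95% interval -0.47 to -0.032, limma adjusted p = 0.0794). The beta isoform, Ppp3cb (ENSMUSG00000021816.11, chromosome 14, 20499364 to 20546573, minus strand), varied more, with 5.60, 3.65 and 3.85 FPKM against 5.22, 6.16 and 7.04 FPKM. Here anti–VEGF-B replicate 1 lay above IgG replicate 1, so that the treatments overlapped. Its log2 fold change was -0.42 (95% interval -0.77 to -0.077, limma adjusted p = 0.0655). It passed without anti–VEGF-B replicate 1 (-0.58, limma adjusted p = 0.0287) and without IgG replicate 1 (-0.52, limma adjusted p = 0.0493), against 0.0287 to 0.338 over the alternatives. Ppp3cc, the gamma isoform, went from 13.5 ± 2.56 to 10.2 ± 0.812 FPKM (-0.36, limma adjusted p = 0.0619, and 0.0230 without IgG replicate 1) and had the highest FPKM of the 3 catalytic genes under either treatment. Within a library, the ratio of Ppp3r1 to the sum of Ppp3ca and Ppp3cb was 4.64, 5.13 and 5.31 with anti–VEGF-B and 4.72, 4.17 and 3.99 with IgG, with overlap (two-sided exact permutation test, p = 0.2). Ppp3cc is not in this sum, so the ratio does not give the B subunit against all catalytic genes.

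Rcan1 (ENSMUSG00000022951.15, chromosome 16, 92391953 to 92466146, minus strand) encodes a protein that binds calcineurin and holds it in check, and the gene is itself switched on by calcineurin and NFAT. Its values were 5.00, 4.63 and 4.0 FPKM with anti–VEGF-B and 6.50, 5.67 and 5.34 FPKM with IgG, which did not overlap. The log2 fold change was -0.30 (95% interval -0.55 to -0.053) and missed the threshold (limma adjusted p = 0.0672, against 0.0461 to 0.534 over the alternatives), although it passed with the replicate number as a block (0.0461). Its relative Rcan3 was called lower, from 7.98 ± 1.85 to 4.62 ± 0.920 FPKM (-0.67, limma adjusted p = 0.0209). Rcan3 was not called when anti–VEGF-B replicate 3 was left out (limma adjusted p = 0.0700), nor when IgG replicate 2 was (0.0590).

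**Figure D2:**
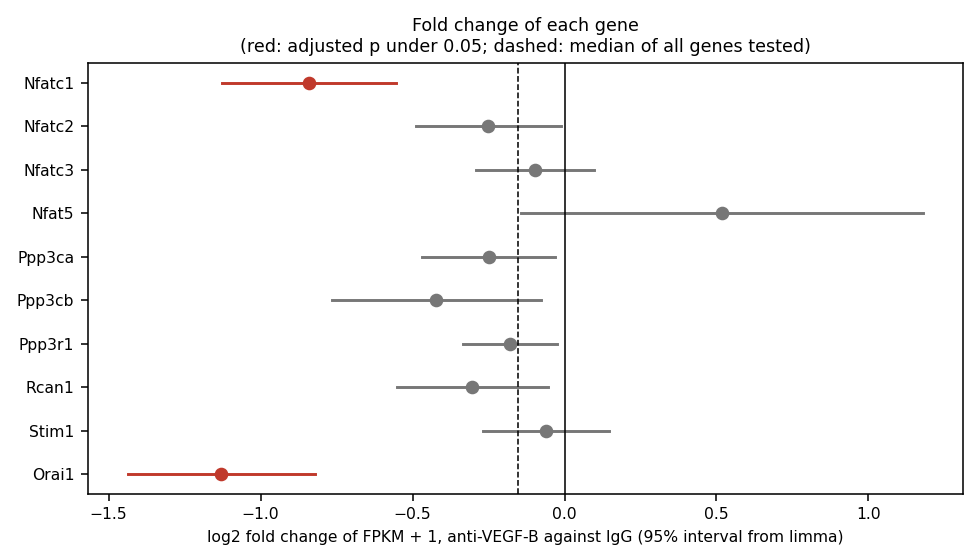
log2 fold change of FPKM + 1 (horizontal axis) of each gene with its 95% interval from limma. The intervals of Orai1 and Nfatc1 lie clear of the dashed line at -0.15, the median of all genes, whereas those of the calcineurin genes and Rcan1 include it.

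Among the NFAT factors, Nfatc1 (ENSMUSG00000033016.15, chromosome 18 of GRCm38, 80606205 to 80713071, minus strand) was the only one called. The factor it encodes is the family member that activated T cells induce, in part through NFAT acting on its own promoter. Nfatc1 was at 9.49, 10.3 and 7.93 FPKM in anti–VEGF-B replicates 1, 2 and 3, and at 15.9, 20.6 and 15.6 FPKM in IgG replicates 1, 2 and 3. The treatments were well separated, with means of 9.23 ± 1.19 and 17.4 ± 2.78 FPKM (SD, n = 3 each) and a level 1.88-fold higher with IgG. The log2 value fell by 0.84 (standard error 0.127, 95% interval -1.13 to -0.55, limma adjusted p = 0.00527), or -0.69 relative to all genes. Leaving out a library gave -0.72 to -0.91, each past the threshold, whereas an ordinary linear model without moderation gave an adjusted p of 0.0732 (range over the alternatives 0.00440 to 0.0732).

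Nfatc2 (ENSMUSG00000027544.16, chromosome 2, 168476410 to 168601657, minus strand), the factor already present in resting T cells, had 12.9, 14.8 and 12.4 FPKM with anti–VEGF-B and 14.5, 18.2 and 15.7 FPKM with IgG. Anti–VEGF-B replicate 2 exceeded IgG replicate 1, and the log2 fold change of -0.25 did not pass (95% interval -0.49 to -0.013, limma adjusted p = 0.10). Nfatc3 (ENSMUSG00000031902.10, chromosome 8, 106058840 to 106130537, plus strand), which is also made constitutively, was nearly level at 7.93, 7.64 and 7.48 FPKM against 7.82, 8.63 and 8.43 FPKM. Another gene, Esrp2, overlaps its span and could share reads with it. The log2 fold change of Nfatc3 was -0.097 (95% interval -0.29 to 0.096, limma adjusted p = 0.408), and its sign turned after quantile normalization (0.074) and median centring (0.10).

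Ratios between the calcineurin-dependent factors, chosen after the values had been seen, restate the fall of Nfatc1 against its relatives. The ratio of Nfatc1 to Nfatc2 was 0.734, 0.692 and 0.640 with anti–VEGF-B and 1.10, 1.13 and 0.994 with IgG, so that Nfatc1 lay under Nfatc2 in every anti–VEGF-B library and near or above it in the IgG libraries. Of the summed FPKM of Nfatc1, Nfatc2 and Nfatc3, Nfatc1 made up 41.4% ± 2.08 with IgG but 30.4% ± 1.62 under anti–VEGF-B (SD, n = 3 each). Neither of these measures overlapped between treatments (two-sided exact permutation tests, p = 0.1 each, the smallest possible). The ratio of Nfatc2 to Nfatc3 did overlap, at 1.74 ± 0.173 and 1.94 ± 0.139 (two-sided exact permutation test, p = 0.3). The other ratios within a library were likewise chosen after the values had been seen.

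**Figure D3:**
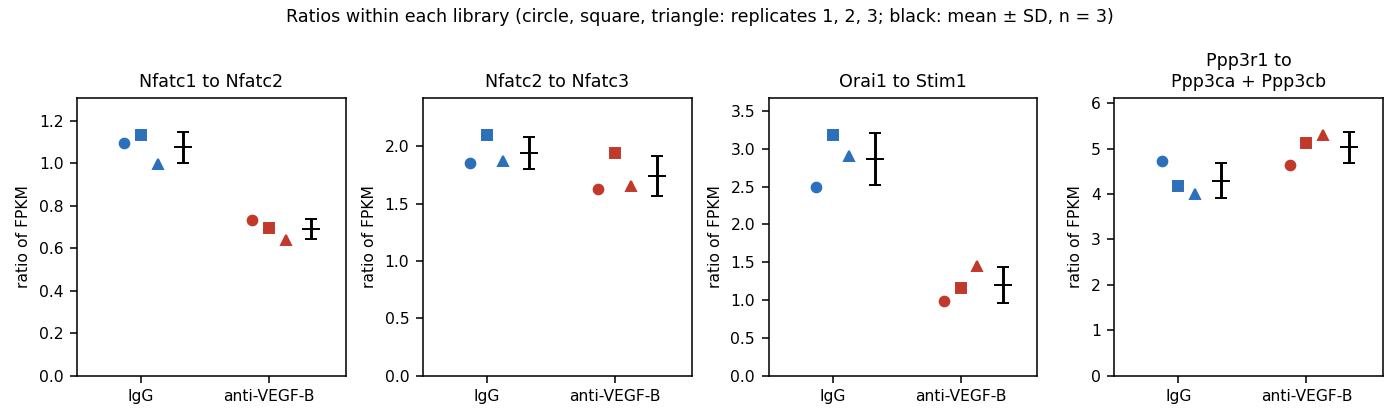
Ratios of FPKM within each library (vertical axes, from 0), with the mean and SD in black. The treatments separate for Nfatc1 to Nfatc2 (0.689 against 1.07 on average) and for Orai1 to Stim1 (1.20 against 2.87), and overlap in the other panels.

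Nfat5 (ENSMUSG00000003847.16, chromosome 8, 107293470 to 107379517, plus strand) was the only one of the 10 genes with a positive log2 fold change, and its IgG libraries were not alike. It lay at 25.1, 26.6 and 26.1 FPKM with anti–VEGF-B, a narrow range, but at 12.1, 13.9 and 33.1 FPKM in IgG replicates 1, 2 and 3. IgG replicate 3 was thus above every anti–VEGF-B library while the other two were far below. Over all libraries the log2 fold change was 0.52 (95% interval -0.14 to 1.18, limma adjusted p = 0.201). Without IgG replicate 3 it was 0.95 (limma adjusted p = 0.00651, against 0.00651 to 0.508 over the alternatives), so that this library decided the call. The same library had the highest myeloid markers, with Lyz2 at 16.4 FPKM compared with 3.67 and 4.03 FPKM in IgG replicates 1 and 2 and 3.26 to 4.19 FPKM with anti–VEGF-B. Csf1r was at 1.57 FPKM there and at 0.288 to 0.380 FPKM in the other 5 libraries. Cd14 was at 1.80 FPKM in IgG replicate 3 and at 0.397 to 0.777 FPKM elsewhere. Cd68 differed less, at 8.99 FPKM in IgG replicate 3 and 6.44 to 8.45 FPKM elsewhere. The part of these markers in the Nfat5 value was not tested.

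As FPKM are scaled for transcript length, the levels of the genes can be ranked within a treatment. With IgG, Ppp3r1 (46.7 FPKM) stood first, followed by Nfat5 (19.7), Nfatc1 (17.4) and Nfatc2 (16.1), whose ranges overlapped from each to the next, then by Orai1 (8.52) and Nfatc3 (8.29), which also overlapped, and by Ppp3cb (6.14) and Rcan1 (5.84), which did as well. Ppp3ca (4.77) and Stim1 (2.97) came last, each clear of its neighbor. With anti–VEGF-B, Orai1 moved from the fifth to the ninth place. It then overlapped with Ppp3ca above it and with Stim1 below it. Nfatc2 (13.4 FPKM) and Nfatc1 (9.23 FPKM) exchanged places and no longer overlapped.

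The genes whose log2 values followed Orai1 most closely over the 6 libraries were Ginm1 (Pearson r = 0.996), Utp20 (0.996) and Nutf2-ps1 (0.994). Since these correlations span both treatments, they largely restate that each gene was lower with anti–VEGF-B (log2 fold changes of -0.34, -0.33 and -0.46). Nutf2-ps1 carries the name of a processed copy of another gene, so its reads may have been shared with that gene.

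**Figure D4:**
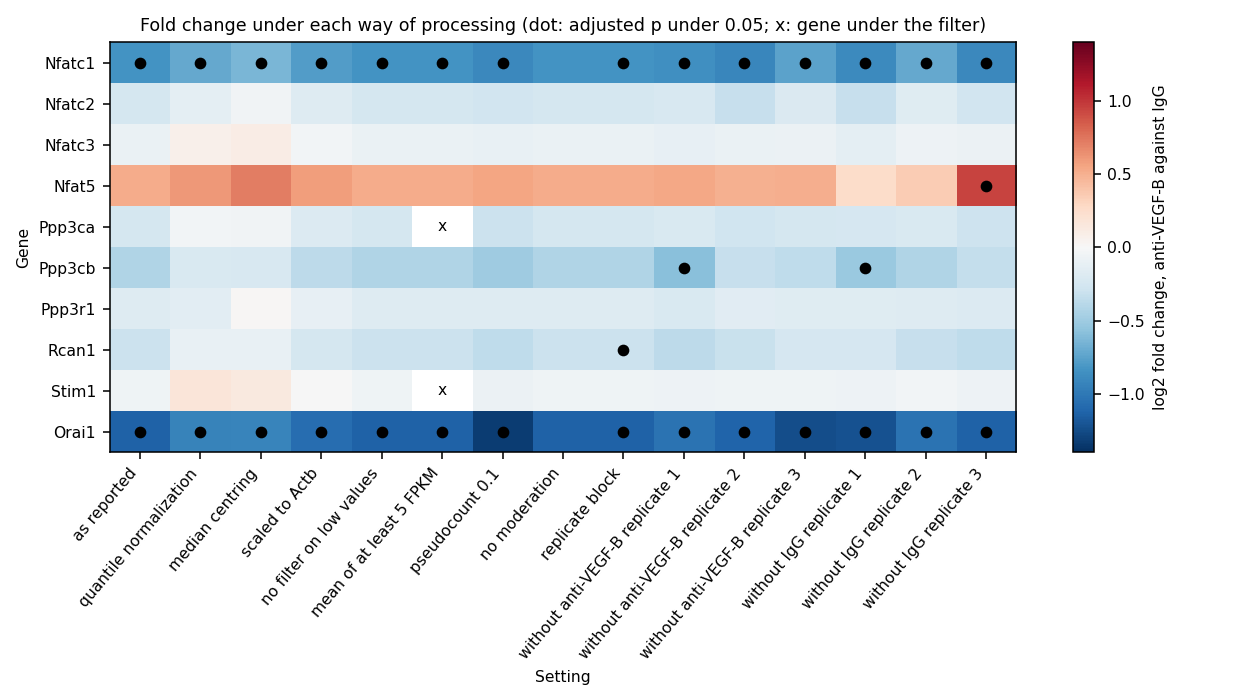
log2 fold change (color) of each gene (rows) under each way of processing the data or choosing the libraries (columns), with a dot where the adjusted p was under 0.05. Orai1 and Nfatc1 carry a dot in every column except the one with no moderation, and Nfat5 does so only without IgG replicate 3.

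The wider pathway was described by lists of genes beside all genes tested. Of 21 genes tested that act upstream in calcium signaling, 6 were called lower (28.6%, against the 23.8% above). In this list 1 gene was called higher, where 4.87% of all genes were, and the list median was -0.16. The lowest p belonged to Calm2, a calmodulin gene that fell from 91.3 ± 3.71 to 69.4 ± 2.42 FPKM (log2 fold change -0.39, limma adjusted p = 0.00772). It was followed by Lcp2, the gene of the adaptor SLP-76 (36.9 ± 6.47 to 23.4 ± 2.05 FPKM, -0.63, limma adjusted p = 0.00990). Atp2a2, a pump that refills the endoplasmic reticulum, went from 12.9 ± 0.990 to 8.54 ± 1.19 FPKM (-0.55, limma adjusted p = 0.0107). Calm2 was not called after median centring (limma adjusted p = 0.133). The gene called higher was Itpkb, a kinase that removes the calcium-releasing messenger IP3 by phosphorylating it, which rose from 46.5 ± 1.61 to 59.8 ± 3.51 FPKM (0.35, limma adjusted p = 0.0119). Kcna3 was under the filter. After median centring, 3 genes of this list were called lower, where 807 of all genes were, against 2099 without the centring.

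Of 6 tested calcineurin-binding proteins and immunophilins, 3 were called lower (50%, against 23.8% of all genes), namely Cabin1 (log2 fold change -0.42, limma adjusted p = 0.0245), a calcineurin inhibitor, Nfatc2ip (-0.37, 0.0283), which binds NFATc2, and Fkbp8 (-0.47, 0.0365), an FK506-binding protein. None of the 3 was called in limma after quantile normalization, median centring or scaling to Actb, nor on leaving out replicate 1 or 3 of anti–VEGF-B or replicate 2 or 3 of IgG. Ppia, the gene of cyclophilin A, the target of cyclosporin A, had 129 ± 13.6 FPKM with anti–VEGF-B and 143 ± 4.55 FPKM with IgG (-0.16, limma adjusted p = 0.192). It has many processed copies in the genome, which makes its value uncertain. Homer3 was under the filter.

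Among 7 kinases that phosphorylate NFAT and so favor its export from the nucleus, 1 was called lower (14.3%, against 23.8% of all genes) and none higher in limma (against 4.87%). At an unadjusted limma p under 0.05, 2 were lower, where 35.2% of all genes were, and 1 was higher, where 702 of 8816 were. The gene called lower was Gsk3a (log2 fold change -0.33, limma adjusted p = 0.0224). Its call was lost after median centring and when scaled to Actb, and on leaving out replicate 3 of anti–VEGF-B or replicate 2 of IgG. Dyrk2 had 0.24 (limma adjusted p = 0.0641), Dyrk1a -0.20 (0.0985) and Csnk1a1 0.16 (0.275), and the list median was -0.057. Dyrk2 was called higher after quantile normalization (limma adjusted p = 0.0364) and median centring (0.0139), with the replicate block (0.0490) and without IgG replicate 3 (0.0493), and Csnk1a1 after median centring (0.0493). Of 8 other substrates of calcineurin, 1 was called lower (12.5%) and 1 higher (12.5%), against 23.8% and 4.87% of all genes. Dnm1l, which drives mitochondrial fission, was called lower (-0.38, limma adjusted p = 0.0182) and the transcription factor gene Mef2d higher (0.39, 0.0463). Dnm1l was not called after quantile normalization, median centring or scaling to Actb, nor without anti–VEGF-B replicate 1. Mef2d was not called when scaled to Actb, with either other filter, or on leaving out any library except anti–VEGF-B replicate 1 (limma adjusted p of 0.0850 to 0.143 in those 5 fits). Crtc3 (0.26, 0.0641) and Mef2a (-0.40, 0.0756) did not pass. Crtc3 was called higher after quantile normalization (limma adjusted p = 0.00939) and median centring (0.00721), and Mef2a lower without IgG replicate 1 (0.0126).

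Genes known as NFAT targets in T cells made the list with the most calls. Of 18 tested, 11 were called lower (61.1%, against 23.8% of all genes) and 1 higher, with a median log2 fold change of -0.42 compared with -0.15 for all genes. This list was written with some of its members' falls already known and is no independent evidence of a direction. The lowest p belonged to Tnf (28.4 ± 3.67 to 16.0 ± 1.02 FPKM), Irf4 (96.0 ± 34.2 to 28.7 ± 5.25 FPKM), Il21 (2.70 ± 0.581 to 0.961 ± 0.156 FPKM) and Il2ra (117 ± 28.9 to 58.3 ± 7.01 FPKM), at log2 fold changes of -0.79, -1.67, -0.91 and -0.97 and limma adjusted p between 0.00471 and 0.00665. The other 7 called lower were Il4, Egr2, Egr3, Nr4a1, Pdcd1, Ctla4 and Havcr2, at -0.34 to -0.73. Il2, the growth factor gene often used to read out NFAT activity, went the other way. It was at 1.33, 1.77 and 1.42 FPKM with anti–VEGF-B and at 0.801, 0.583 and 0.292 FPKM with IgG, low values that rose by 0.69 on the log2 scale (limma adjusted p = 0.0104). Its mean was close to the filter, and on leaving out any anti–VEGF-B library it was under it. Il21, Pdcd1 and Havcr2 averaged 0.961, 0.947 and 0.746 FPKM with anti–VEGF-B. They passed the filter only through their IgG values (2.70, 1.65 and 1.48 FPKM on average). Il2 passed only through its anti–VEGF-B values, as its IgG mean was 0.559 FPKM. Fasl, Tox and Tox2 were under the filter. With no filter the count called lower was 11 as well. The count called lower was 6 after median centring and 6 without anti–VEGF-B replicate 3. Of all genes, 807 and 702 were called lower in these fits, against 2099 as first fitted. Fewer cells expressing a gene and less RNA per cell cannot be told apart in libraries of whole cultures.

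**Figure D5:**
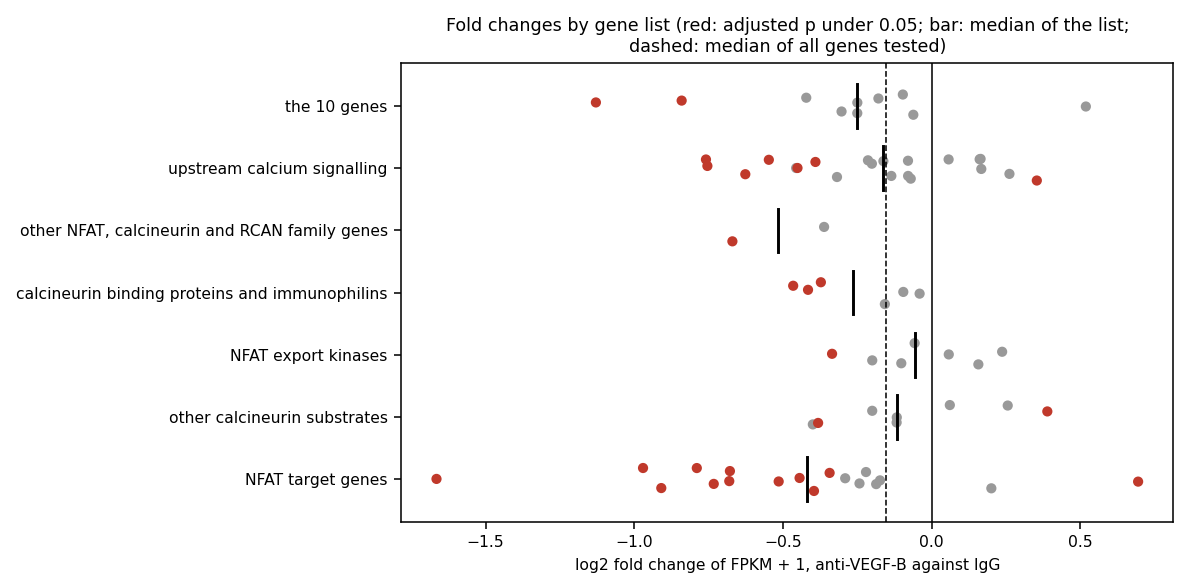
log2 fold change of FPKM + 1 (horizontal axis) of every tested gene of each list, with the list median as a bar and the median of all genes (-0.15) dashed. Of the 18 NFAT target genes, 16 lie left of the dashed line, while the export kinases and other substrates scatter around it.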

How the data were processed

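RNA-Seq was performed on 3 anti–VEGF-B and 3 IgG libraries of CD4+ T cells. The authors prepared stranded libraries, aligned reads to the mouse genome (GRCm38) with hisat2, used StringTie and Ballgown for expression levels, and deposited 1 value per gene and library, treated here as FPKM because this is the gene value that Ballgown gives and the values are not whole numbers. Strand use in counting, normalization between libraries and the filter behind the genes listed were not given in the sources used here. Low values shared no common step (between any pair of libraries, at most 1.38% of the genes below 0.3 FPKM had the same ratio), so reads could not be recovered and no count model was run.

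Genes averaging 1 FPKM or more were kept, and log2(FPKM + 1) was modelled in limma 3.58.1 under R 4.3.3 (empirical Bayes with trend, no covariate). Genes were called at a Benjamini-Hochberg adjusted p under 0.05 over all 8816 genes tested. Alternatives changed the scaling, filter, pseudocount (0.1), moderation, replicate block and libraries included. On simulated data with 200 of 8816 genes changed, 91% were called at a log2 change of 1 and 55% at 0.5, with 14 and 7 unchanged genes called.

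The 10 genes and all lists were chosen with earlier results of these data known. From each list the 4 genes with the lowest p were named, and genes under the filter by name only. A gene that this rule names among the upstream genes is not reported here. For the called gene of the 10 with the largest change, the 3 most correlated genes were named. Orai2, Orai3, Stim2, Itpkb, Il2, the markers given with values and the called NFAT targets beyond the first 4 were named after their values were seen. Nfatc4, Ppp3r2, Rcan2, Akap5, Homer2, Mef2c and Il3 were not analysed here. Per the RefSeq annotation of GRCm38.p6, the spans of Nfatc1, Nfat5, Ppp3cb, Rcan1 and Stim1 overlap noncoding genes or a pseudogene and that of Nfatc3 overlaps Esrp2, which could add reads.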

Additional observations from a re-analysis of the deposited data

How the results depend on the processing

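Replicate numbers are shared by the labels, but the deviations of same-numbered libraries correlated at only -0.030, 0.11 and 0.089, so no pairing was assumed. With the replicate block, 3 of the 10 genes were called lower (Rcan1 added), and 2109 of all genes. With no moderation none of the 10 was called (0 lower, 5 at an unadjusted p under 0.05), nor any gene of the 6 lists called lower before (0 each), and 6 genes in the whole table were lower and 6 higher. Quantile normalization gave 913 genes lower and 880 higher, median centring 807 and 1365, and scaling to Actb 1309 lower. Under quantile normalization 0 calcineurin-binding proteins and 0 other substrates were called lower, under median centring 3 upstream genes, 6 NFAT targets and 0 of the binding proteins, kinases and other substrates, and under scaling to Actb 0 of these last 3 lists. With a mean of at least 5 FPKM, 7 NFAT targets, 1 binding protein and 989 of all genes were called lower. Leaving out each library in turn, 0 to 1 of the 10 genes were higher, and the genes called lower were 0 to 2 of the other family genes, 0 to 3 binding proteins, 0 to 1 kinases, 0 to 2 other substrates, 6 to 10 NFAT targets and 702 to 2074 of all genes, with 163 to 395 higher. The lowest counts of all genes came without anti–VEGF-B replicate 3, and without IgG replicate 2 the counts were 1073 and 257. The sign turned for Nfatc3 (0.074 quantile, 0.10 median), Stim1 (0.17 and 0.14), Stim2 (0.11 and 0.12, and -0.18 to 0.047 on leaving out each library, the highest without IgG replicate 2) and, after median centring, Ppp3r1 (0.022), Ppia (0.044) and Dyrk1a (0.0011), none of which was called. Over the genes named, 417 further values kept direction and side of the threshold, 66 lost a call and 13 gained one. The cause of these shifts was not tested. As FPKM carry no depth, the precision from counting is unknown.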
